A study of Mus musculus with 5 samples.

Results

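The calcium pumps of the sarcoplasmic reticulum and the proteins that bind calcium on either side of its membrane were followed as 10 genes, chosen by symbol from all 19505 genes with a single symbol on the array. They were the pump genes *Atp2a1*, *Atp2a2* and *Atp2a3*, the pump inhibitors *Pln* and *Sln*, the luminal calcium binders *Casq1*, *Casq2* and *Hrc*, and the cytosolic calcium binders *Pvalb* and *Sri*. Each had 1 probe set, and all 10 were found. The samples were 5 sedentary mice of a single group (mice 1, 3, 11, 14 and 16), all carrying Myogenin-Cre together with the floxed allele RiboTag-Rpl22fl/fl-HA and given no treatment. Where the myogenin gene is active, Cre switches RPL22, a ribosomal protein, to an HA-tagged form, so that anti-HA antibody pulls down ribosome-bound mRNA of myofibers, here from the left soleus, a muscle of mixed slow and fast fibers. The labels give neither age nor sex, and the Methods state sexually mature males unless stated otherwise. Each eluate was hybridized to 1 Clariom S array, whose values are log2 signals, so a difference of 1 is a doubling.

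A muscle fiber contracts when calcium leaves the sarcoplasmic reticulum and relaxes when SERCA pumps return it. SERCA1, from *Atp2a1*, is the pump of fast fibers, SERCA2, from *Atp2a2*, that of slow fibers and the heart, and SERCA3, from *Atp2a3*, is known from non-muscle cells such as platelets and endothelium. Phospholamban and sarcolipin, small membrane peptides from *Pln* and *Sln*, slow the pump, calsequestrins hold calcium near the release channels, and parvalbumin, from *Pvalb*, takes up cytosolic calcium in fast fibers of rodents.

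With 1 group and no input RNA here, 1091 odorant receptor genes, which muscle is not known to use, served as background, and their 95th percentile on each array, between 5.25 and 5.32, was the cutoff. A gene was called above background where it lay above the cutoff with an adjusted p under 0.05 (limma, two-sided, Benjamini-Hochberg over all genes). This called 43.5% of all genes and 10 of the 10 genes followed here, each above the cutoff in 5 of 5 mice. Their median distance from the cutoff was 10.10, against -0.12 over all genes. Probe sets differ in affinity, so signals of different genes are not set against each other, and the p-values cover only the spread between 5 mice. In this bulk material, fewer fibers of a type and less mRNA per fiber cannot be told apart. *Rpl22*, the gene that carries the tag, read 12.12 ± 0.53 and *Myog* 7.12 ± 0.69 (SD, n = 5 each). Signals were read per gene, so tagged and untagged *Rpl22* mRNA were not told apart. All 8 genes of both fiber types, all 9 fast and 8 of 9 slow fiber markers were called, with *Myh7b* the exception. The Y-linked *Eif2s3y* read 3.54 and 3.53 in mice 1 and 16 but between 10.42 and 12.73 in the other mice, and *Uty* and *Kdm5d* divided the mice in the same way. For mice 1 and 16 these values go against the male sex given in the Methods, so the group may mix sexes, and the labels do not settle it. Over mice 3, 11 and 14 alone, a choice made after seeing the data, 9 of the 10 genes were called, against 42.2% of all genes. The exception was *Atp2a3* (distance 0.31, limma adjusted p = 0.125).

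**Figure D1:**
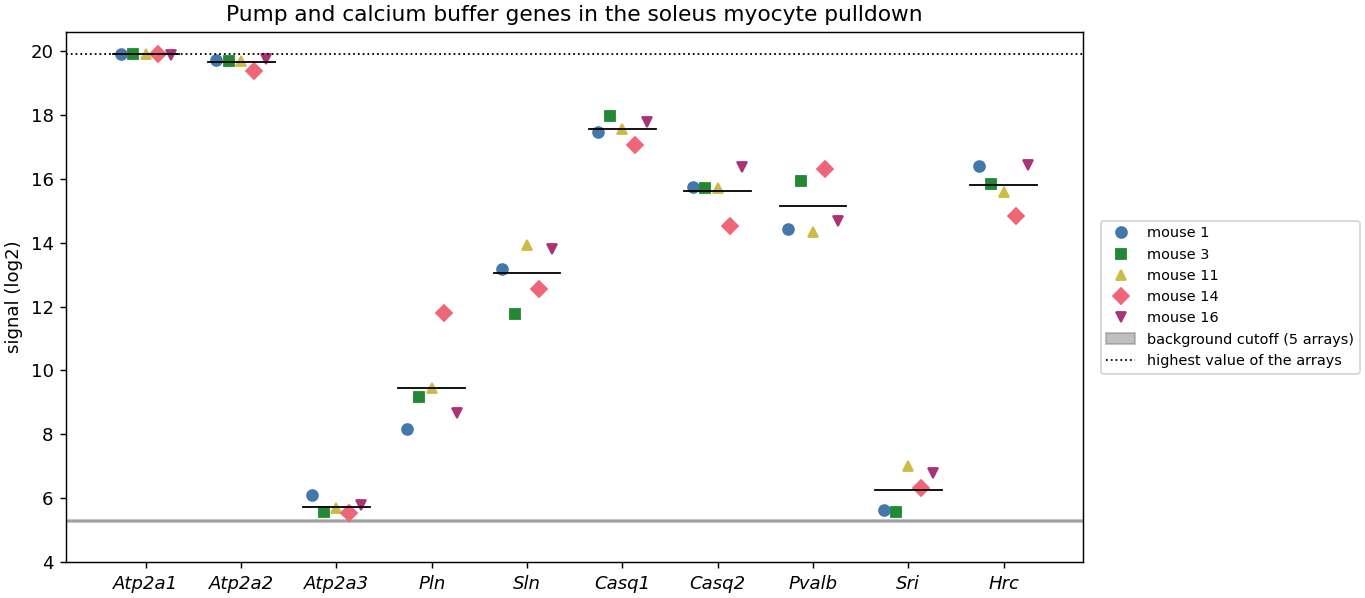
Signal (log2) of each of the 10 genes in each of 5 mice, with the mean as a black line, the cutoffs of the 5 arrays as a grey band and the highest value of the arrays as a dotted line. *Atp2a1* lies on the dotted line, *Atp2a3* lies just above the cutoff in all mice and *Sri* in mice 1 and 3, and mouse 14 is highest for *Pln* and lowest for *Casq2* and *Hrc*.

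*Atp2a1* read 19.93 in mice 1, 3, 11 and 14 and 19.90 in mouse 16, which was the highest value on each of the 5 arrays. Between 7 and 16 probe sets shared that highest value on an array, so the signal of the fast pump gene gives a lower limit and no order among mice. It lay 14.65 above the cutoff (SE 0.13, limma adjusted p = 3.46e-15).

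*Atp2a2*, the slow and cardiac pump gene, read 19.72, 19.70, 19.71, 19.39 and 19.76 in mice 1, 3, 11, 14 and 16, in that order. Mouse 14 was below the others, which lay within a narrow band close to the top of the scale. The mean was 19.66 ± 0.15 (SD, n = 5), 14.38 above the cutoff (SE 0.14, limma adjusted p = 3.77e-15), and without mouse 14 the SD was 0.02. Its probe set is annotated to 3 transcripts, so the muscle form SERCA2a and the widely expressed SERCA2b were not told apart.

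*Atp2a3* read 6.09, 5.56, 5.68, 5.52 and 5.78 in mice 1, 3, 11, 14 and 16. All 5 mice lay close above the cutoff, mouse 1 farthest. The distance was 0.45 (SE 0.14, limma adjusted p = 0.0102), and the call was lost with vomeronasal receptor genes as background (0.22, limma adjusted p = 0.214). The sign turned at the 99th percentile of odorant receptor genes (-0.09) and with beta-defensin and keratin-associated genes as background (-0.11). Of markers of cells known for SERCA3, 4 of 9 endothelial genes were called (*Pecam1*, *Cdh5*, *Kdr* and *Tek*), a share of 44.4% that is near the 43.5% of all genes, with summed linear signals between 458 in mouse 16 and 772 in mouse 14. For platelet and erythroid cells 2 of 4 were called, also near it (184 in mouse 14 to 261 in mouse 1), the red cell gene *Slc4a1* and the platelet integrin gene *Itga2b*, the latter at a distance of 0.44 (limma adjusted p = 0.0143). For immune cells 1 of 8 was called, or 12.5% (231 in mouse 14 to 348 in mouse 1), the macrophage receptor gene *Mrc1*. The part of such cells in the *Atp2a3* signal was not tested.

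*Pln*, which encodes the phosphorylation-controlled inhibitor of SERCA2, read 8.18, 9.17, 9.45, 11.81 and 8.67 in mice 1, 3, 11, 14 and 16, in that order. Mouse 14 deviated from the mean by 2.35, and the other mice by -1.28 to -0.01. The lowest pair, mice 1 and 16, were those with low Y-linked signals, and the part of sex in this spread was not tested. The highest signal was 12.4 times the lowest on the linear scale. The mean of 9.46 ± 1.40 (SD, n = 5) was 4.18 above the cutoff (SE 0.40, limma adjusted p = 1.05e-06). This SD exceeded that of 99.6% of the 8482 called genes, and without mouse 14 it was 0.56.

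Since *Pln* is also a gene of heart and smooth muscle, markers of both were read beside it. Of 8 heart markers 2 were called, a smaller share than the 43.5% of all genes. They were *Tnnt2* and *Myl4*, which developing skeletal muscle also expresses. The summed linear signal of the 8 heart markers was 1340, 1190, 828, 814 and 1310 in mice 1, 3, 11, 14 and 16. The natriuretic peptide genes *Nppa* and *Nppb* and the cardiac myosin-binding protein gene *Mybpc3* were below the cutoff in all 5 mice. The part of heart RNA in the *Pln* signal was not tested. Of 8 smooth muscle markers 5 were called (*Acta2*, *Tagln*, *Smtn*, *Rgs5* and *Des*), or 62.5%, and 57.1% with *Des* left out, against 43.5% of all genes. Without *Des*, which myofibers share, the other 7 were summed on the linear scale. The sum was 2310, 2430, 1810, 2680 and 1470 in mice 1, 3, 11, 14 and 16, highest in mouse 14. Only 2 of the 7, *Rgs5* and *Myh11*, were highest there, or 28.6%, near the 23.7% of all genes. *Acta2* and *Tagln* were highest in mouse 3, *Smtn* in mouse 11, and *Cnn1* and *Notch3* in mouse 16. The smooth muscle myosin gene *Myh11* read 5.97 in mouse 14 and between 4.67 and 5.00 in the others, and it was not called. Of the 9 endothelial markers counted beside *Atp2a3*, 5 were highest in mouse 14 (55.6%, against 23.7% of all genes). They were *Pecam1*, *Cdh5* and *Kdr*, and also *Emcn* and *Erg*, which were not called (distances -0.11 and -0.19). The called gene *Tek* was below its mean in mouse 14 (deviation -0.39). The part of smooth muscle or vessel RNA in the *Pln* signal was not tested.

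*Sln*, known in mice from atria and slow muscles, read 13.18, 11.77, 13.94, 12.54 and 13.81 in mice 1, 3, 11, 14 and 16, in that order. Mice 3 and 14 were the lowest pair. The mean was 13.05 ± 0.91 (SD, n = 5), 7.77 above the cutoff (SE 0.28, limma adjusted p = 8.33e-11), with a 4.5-fold range on the linear scale and an SD above that of 97.1% of called genes. The mice did not fall in the same order for both inhibitors. *Pln* minus *Sln* within an array was -0.73 in mouse 14 and -5.14 in mouse 16, and between these in the other mice. The size of such a difference mixes in probe affinity, and only its variation among mice can be read.

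*Casq1*, the calsequestrin of skeletal muscle, read 17.47, 17.96, 17.56, 17.08 and 17.78 in mice 1, 3, 11, 14 and 16. With 17.57 ± 0.33 (SD, n = 5), its spread was near the middle of called genes, above 42.6% of them. The distance was 12.29 (SE 0.16, limma adjusted p = 2.3e-14).

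*Casq2*, the calsequestrin of heart and slow fibers, read 15.74, 15.72, 15.71, 14.52 and 16.38 in the same mice. Mice 1, 3 and 11 were alike, mouse 14 was lowest (deviation -1.10) and mouse 16 highest (0.76). The mean was 15.61 ± 0.67 (SD, n = 5), 10.34 above the cutoff (SE 0.22, limma adjusted p = 1.07e-12), and the SD was 0.33 without mouse 14. *Casq2* minus *Casq1* was -2.56 in mouse 14 and between -2.23 and -1.40 in the others, so both calsequestrin genes were lowest in mouse 14 and *Casq2* by more.

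*Hrc*, for a histidine-rich luminal calcium binder that contacts triadin and SERCA2, read 16.42, 15.83, 15.59, 14.85 and 16.44 in mice 1, 3, 11, 14 and 16. Mouse 14 was again lowest, and mice 1 and 16 were highest. The mean was 15.82 ± 0.66 (SD, n = 5), 10.55 above the cutoff (SE 0.22, limma adjusted p = 7.23e-13), with an SD of 0.43 without mouse 14.

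*Pvalb*, the buffer of fast fibers, read 14.44, 15.95, 14.35, 16.31 and 14.69 in mice 1, 3, 11, 14 and 16, in that order. Mice 3 and 14 stood above the other 3, with no mouse between 14.69 and 15.95. The mean was 15.15 ± 0.91 (SD, n = 5), 9.87 above the cutoff (SE 0.28, limma adjusted p = 1.04e-11), with a 3.89-fold range and an SD above that of 97.3% of called genes. The same mice, 3 and 14, were the lowest pair for *Sln*.

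*Sri*, which encodes sorcin, a penta-EF-hand protein that binds release channels and SERCA in the heart, read 5.63, 5.55, 7.01, 6.32 and 6.78 in mice 1, 3, 11, 14 and 16. Mice 1 and 3 lay just above the cutoff, and mice 11 and 16 over 1 unit above it. The mean was 6.26 ± 0.66 (SD, n = 5), 0.98 above the cutoff (SE 0.22, limma adjusted p = 0.00127). At the 99th percentile (0.44, limma adjusted p = 0.0582) and with beta-defensin and keratin-associated genes as background (0.43, limma adjusted p = 0.0834) it was not called.

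**Figure D2:**
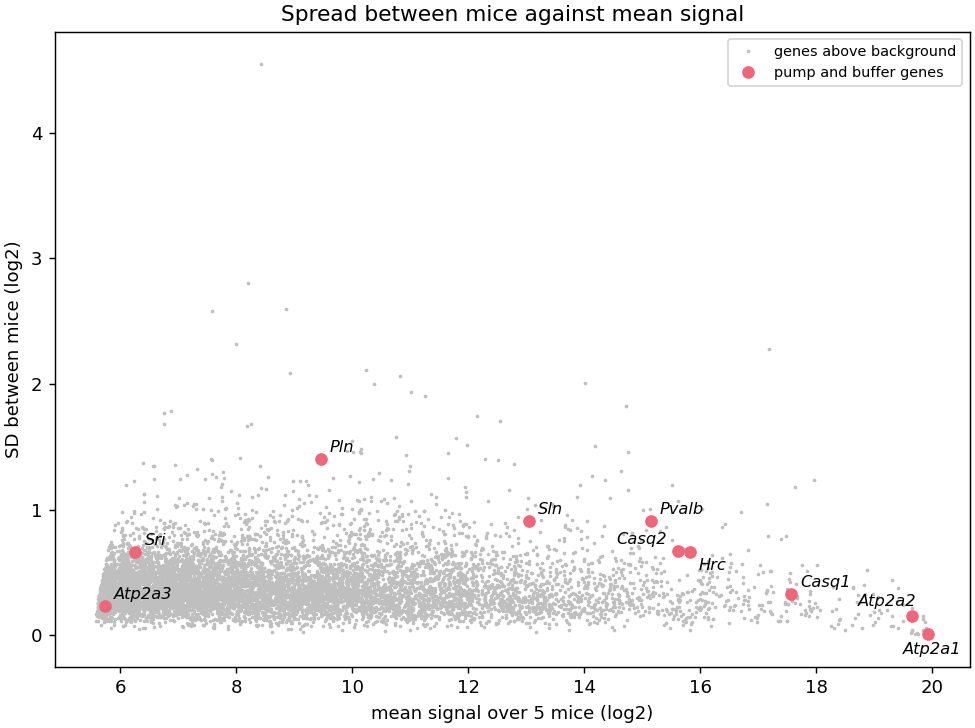
SD between 5 mice against mean signal (both log2) for all 8482 genes called above background (grey) and for the 10 genes (red). *Pln* at 1.40 and *Sln* and *Pvalb* at 0.91 each lie in the upper part of the cloud, *Casq2*, *Hrc* and *Sri* at 0.66 to 0.67, and *Atp2a1* at 0.01 at the top of the scale.

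Spread between mice was thus unequal within the pathway. The median SD was 0.66 over the 10 genes and 0.363 over all called genes. Mouse 14, singled out after its values were seen, was the lowest mouse for 5 of the 10 genes (*Atp2a2*, *Atp2a3*, *Casq1*, *Casq2* and *Hrc*) and the highest for *Pln* and *Pvalb*, setting aside *Atp2a1*, whose ties at the top of the scale have no order. Over all called genes, mouse 14 was lowest for 24.1% and highest for 26.7%. Fiber type markers in the same mouse were read beside these values. The slow myosin gene *Myh7* read 19.31 in mouse 14 and between 19.64 and 19.90 in the others, and 8 of 9 slow fiber markers were lowest there. Among these, *Tnnt1*, *Tpm3*, *Myl2* and *Tnnc1* lie close to the top of the scale. They deviated by only -0.06, -0.04, -0.19 and -0.28 in mouse 14, which limits what the count can show. *Tnni1* deviated by -0.63 and *Myl6b* by -1.36, and *Myh7b* was not called. The fast IIb myosin gene *Myh4* read 19.83 in mouse 14 against 16.72, 18.44, 17.69 and 17.10 in mice 1, 3, 11 and 16. Fast fiber markers did not all follow *Myh4*. Leaving ties aside, 2 of the 9 (*Myh1* and *Myh4*) were highest in mouse 14, or 22.2%, while *Mylpf* was lowest there (19.45), *Tnnt3* and *Tnni2* deviated by 0.00 and -0.03, and *Actn3* was highest in mouse 3 (14.22, against 13.79 in mouse 14). *Mylpf*, *Tnnt3* and *Tnni2*, with means of 19.63, 19.64 and 19.84, lie near the highest value of 19.93 and had little room to rise. Among called markers with a mean under 19, the median deviation in mouse 14 was 0.76 over 3 fast genes (-0.52 to 0.49 in the other mice). Over 2 slow genes, *Myl3* (-0.03) and *Myl6b*, it was -0.69 (-0.41 to 0.58 in the other mice). *Atp2a2* and *Casq2*, known from slow fibers, but also *Casq1* and *Hrc*, were thus lowest in the mouse with the lowest *Myh7*, and *Pvalb*, known from fast fibers, and *Pln*, known from slow fibers, were highest there. Mice 1 and 16, with low Y-linked signals, were the lowest pair for *Pln* and the highest for *Atp2a2*, *Atp2a3*, *Casq2* and *Hrc*. For *Atp2a2* and *Casq2* mouse 1 was hardly above the next mouse, at 19.72 against 19.71 in mouse 11 and 15.74 against 15.72 in mouse 3. *Atp2a3* lay close to the cutoff. Mice 1 and 16 formed no such pair for *Sln*, *Casq1*, *Pvalb* or *Sri*. With 5 mice no correlation was computed, and neither what sets mouse 14 apart nor a part of sex was tested.

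**Figure D3:**
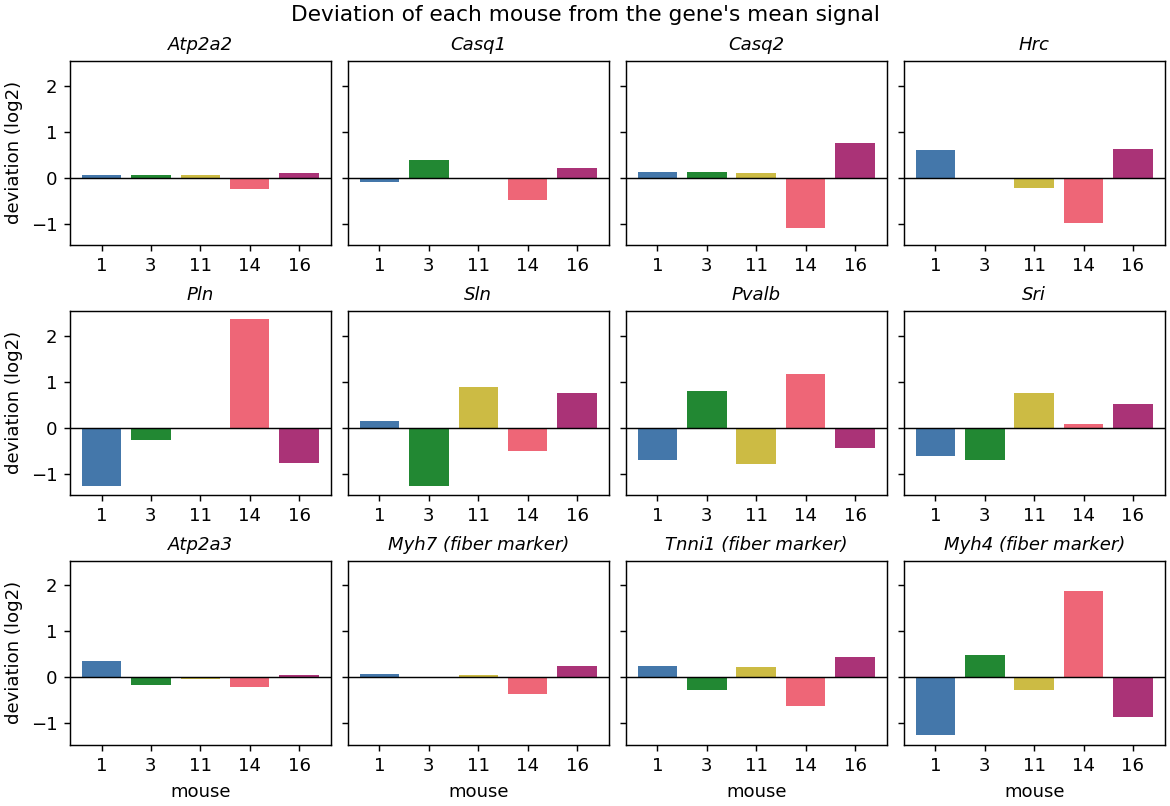
Deviation (log2) of each mouse from the gene's own mean over 5 mice, for 9 of the 10 genes and for the fiber markers *Myh7*, *Tnni1* and *Myh4*. *Atp2a1*, at the top of the scale, is not drawn. Mouse 14 is 2.35 above the mean for *Pln* and 1.87 for *Myh4*, with a deviation of -1.10 for *Casq2*.

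Promoter windows of the genes that differed most in mouse 14 are shown because 2 of these genes read high and 2 read low in that mouse. RefSeq windows of 300 bases (250 before to 50 after the start, GRCm38.p6) were found for 8 of the 10 genes, by symbol. *Atp2a2* and *Sln* were the others. Capitals mark matches to the MEF2 consensus or to the E-box CAGCTG, motifs bound by muscle transcription factors, whose patterns read the same on both strands. All are written 5′ to 3′ along the gene's strand.
Pln, chr10:53337436-53337735, plus strand: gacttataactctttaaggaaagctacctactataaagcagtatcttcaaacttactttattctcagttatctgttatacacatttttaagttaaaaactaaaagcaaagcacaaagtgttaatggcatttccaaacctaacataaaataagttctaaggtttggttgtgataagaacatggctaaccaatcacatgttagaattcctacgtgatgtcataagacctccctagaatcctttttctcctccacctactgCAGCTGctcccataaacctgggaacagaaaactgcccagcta
Pvalb, chr15:78206351-78206650, minus strand: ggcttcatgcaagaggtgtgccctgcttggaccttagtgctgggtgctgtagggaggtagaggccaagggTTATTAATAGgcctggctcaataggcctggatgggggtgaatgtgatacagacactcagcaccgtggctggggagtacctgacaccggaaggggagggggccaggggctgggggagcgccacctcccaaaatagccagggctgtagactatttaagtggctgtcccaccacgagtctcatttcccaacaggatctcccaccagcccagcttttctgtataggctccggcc
Casq2, chr3:102086165-102086464, plus strand: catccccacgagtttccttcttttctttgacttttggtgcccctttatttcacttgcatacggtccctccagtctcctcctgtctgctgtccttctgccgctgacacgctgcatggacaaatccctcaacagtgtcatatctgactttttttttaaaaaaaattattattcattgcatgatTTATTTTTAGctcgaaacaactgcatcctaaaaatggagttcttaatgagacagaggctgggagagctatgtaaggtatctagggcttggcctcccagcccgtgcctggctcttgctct
Hrc, chr7:45335019-45335318, plus strand: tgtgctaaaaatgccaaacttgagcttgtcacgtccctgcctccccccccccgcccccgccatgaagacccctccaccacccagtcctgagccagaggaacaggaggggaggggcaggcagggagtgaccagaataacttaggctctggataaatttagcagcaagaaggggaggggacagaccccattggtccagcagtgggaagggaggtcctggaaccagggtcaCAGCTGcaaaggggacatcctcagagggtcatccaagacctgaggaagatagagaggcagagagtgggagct
A MEF2 match began 180 bases upstream of the start in *Pvalb* and 69 bases upstream in *Casq2*, and 3.19% of all 32841 windows held one. The E-box CAGCTG, found in 16.3% of windows, began 22 bases upstream in *Hrc* and 8 bases after the start in *Pln*, and it was also present in the windows of *Atp2a1* (55 bases upstream) and *Casq1* (195 bases upstream). No match of either kind overlapped another. The SRF motif known as the CArG box, in 1.63% of windows, had no match in the 9 windows of these genes (*Pvalb* has 2, and its second held no match of any kind). The MEF2 match was thus present in 1 gene that read high and 1 that read low in mouse 14. These are letter matches only, not sites shown to be used.

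Genes with the most similar pattern over the 5 mice were named by the smallest root mean square difference of deviations from the gene's own mean, among 8481 other called genes, for *Pln* and *Pvalb*, the pair with the largest SD. For *Pvalb* the nearest was *Phkg1*, the catalytic subunit of muscle phosphorylase kinase (difference 0.08), which read 13.05, 14.33, 12.87, 14.85 and 13.21 in mice 1, 3, 11, 14 and 16. Next came *Fbp2*, the muscle fructose bisphosphatase (0.24), and *Ttc21b*, a ciliary transport protein (0.26). Mice 3 and 14 were the highest pair for all of these. For *Pln* the nearest were *Tnfaip2* (0.24), *Pxmp4*, a peroxisomal membrane protein (0.29), and *Tlcd4* (0.33). *Tnfaip2* read 7.77, 9.06, 9.28, 11.02 and 8.38, with mouse 1 lowest and mouse 14 highest as for *Pln*. Over only 5 mice, a near pattern is a description.

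The other genes of the pathway were taken from a list of 60, of which 51 were measured. Of these, 40 were called (78.4%), with a median distance of 6.43, against 43.5% and -0.12 over all genes. For calcium release and its partners, 16 of 18 were called. *Trdn*, for triadin, which anchors calsequestrin to the release channel, read 17.08 ± 0.50, 11.80 above the cutoff, and *Asph*, whose products include the anchor junctin, 17.04 ± 0.56 (SD, n = 5 each), 11.76 above it. Both were lowest in mouse 14, at 16.33 and 16.08, as were 8 of the 18 genes (44.4%, against 21.9% of all genes). *Fkbp1b*, of the cardiac release channel, was below the cutoff in every mouse (distance -1.92) and the cardiac channel gene *Ryr2* above it in 1 mouse only (distance -0.16, limma adjusted p = 0.403).

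Of pump regulators and reticulum partners, 11 of 12 were called. *Tmem38a*, a potassium channel of the reticulum, lay 11.30 and *Ppp1r3a*, a targeting subunit of protein phosphatase PP1, 10.75 above the cutoff, and *Hax1*, which binds phospholamban, 3.68 above it. *Smim6*, which encodes the SERCA-inhibiting micropeptide endoregulin, was not called (distance -0.43), while another-regulin, listed under a RIKEN symbol, was called at 4.12 (SE 0.18, limma adjusted p = 5.67e-10). Of the CaMKII genes, for the kinase that phosphorylates phospholamban, *Camk2g* (SD 0.80) and *Camk2b* (SD 0.65) had the largest spread of all called related genes after *Orai1*. *Camk2g* read 11.42, 11.79, 10.60, 12.50 and 12.49 in mice 1, 3, 11, 14 and 16, and *Camk2b* 12.75, 12.93, 13.01, 14.07 and 12.30. All 4 CaMKII genes were highest in mouse 14, the mouse with the highest *Pln*, an observation made after their values were seen, although *Camk2g* was nearly equal in mice 14 and 16. Over all called genes, 26.7% were highest in mouse 14, and a link between these genes and *Pln* was not tested.

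Of genes for calcium entry, extrusion and mitochondrial uptake, 13 of 18 were called. *Smdt1*, a subunit of the mitochondrial uniporter, lay 8.75 and *Saraf*, an inhibitor of store-operated entry, 7.58 above the cutoff. *Orai1*, the store-operated channel, had the largest SD of the list's called genes (1.00) and read 7.58, 8.89, 9.54, 10.22 and 8.58 in mice 1, 3, 11, 14 and 16, in that order, again with mouse 1 lowest and mouse 14 highest. As for *Pln*, mice 1 and 16 were the lowest pair. *Orai2* (distance -1.54) and the plasma membrane pump gene *Atp2b3* (-0.78) were below the cutoff in every mouse, and the others not called were *Atp2b2*, *Slc8a1* and *Slc8a2*. Of cytosolic EF-hand buffers other than *Pvalb*, 0 of 3 were called by limma. *Calb1*, *Calb2* and *Ocm* lay below the cutoff in all 5 mice, at distances of -0.60, -1.48 and -2.40.

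**Figure D4:**
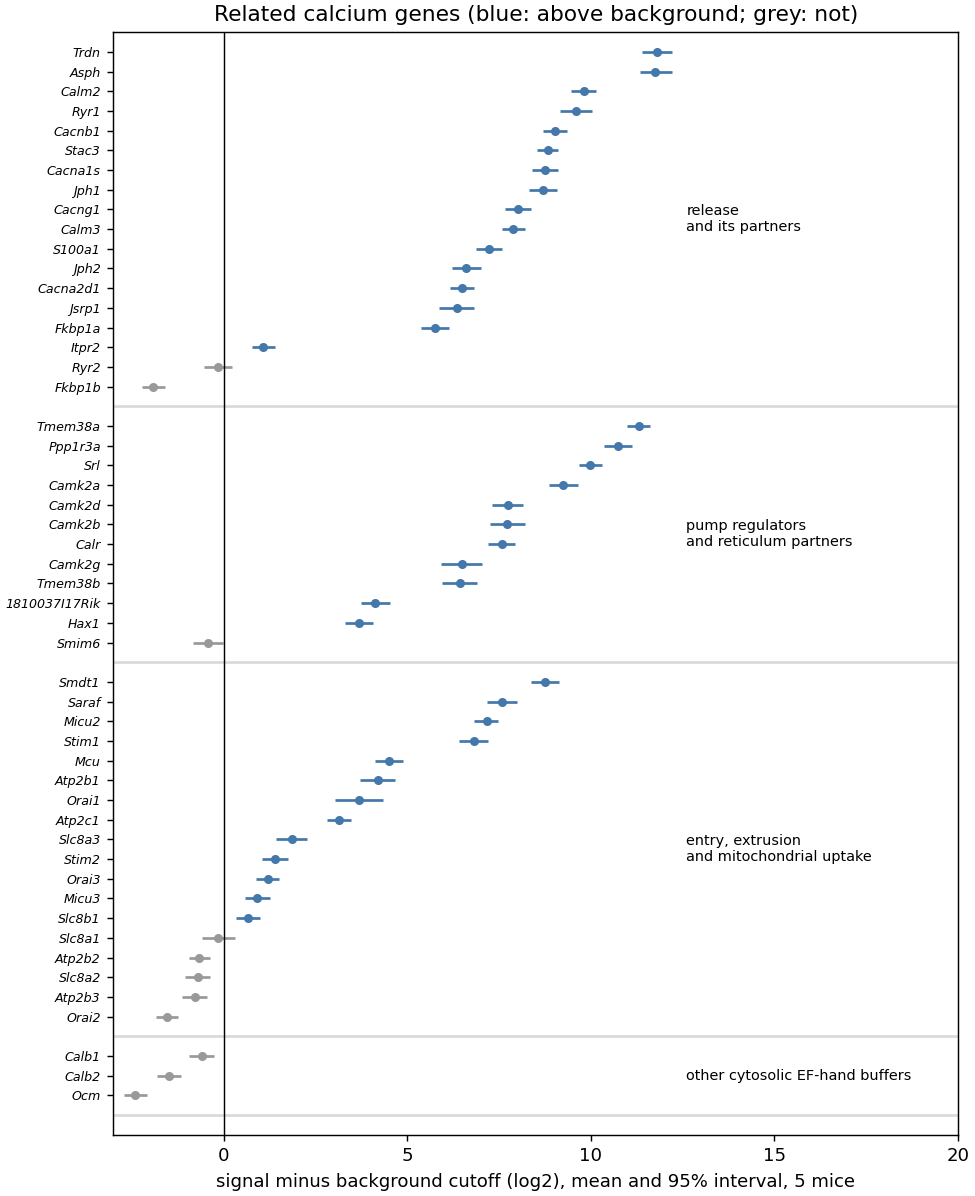
Signal minus background cutoff (log2) of 51 related calcium genes by role, as the mean over 5 mice with its 95% interval from limma. Blue points were called above background (40 genes) and grey points were not (11 genes), among them all 3 other cytosolic buffers.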

How the data were processed

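Ribosome-bound RNA from the left soleus of 5 mice was hybridized to Affymetrix Clariom S arrays for mouse. The authors processed intensities with Transcriptome Analysis Console 4.0 in its default configuration and deposited log2 signals. For the summarization algorithm and the build the entry is "not given in the sources used here". Of 22206 probe sets, 19572 had 1 gene symbol, 0 several and 2634 none in the platform annotation. Probe sets of 1 gene were averaged. Distances from the cutoff were fitted per gene against 0 (limma 3.58.1 with eBayes, R 4.3.3), a step tested on simulated data. Precision is limited by the number of arrays. Nothing states whether mice shared a litter. Summaries used pandas 2.3.3 under Python 3.11.15.

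The genes followed and the lists were chosen with earlier results of these data known. Named are all 10 genes, the 2 related genes with the largest and the 2 with the smallest distance in each of 4 sublists, the 3 called related genes with the largest SD, the 3 nearest patterns for each of 2 genes, and check genes. Others were named after their values were seen. Listed symbols with no gene in the annotation were not analysed here. Alternatives were other percentiles (50, 90, 99), background sets, prior, normalization, probe set rule, low filter, no model and each mouse left out.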

Additional observations from a re-analysis of the deposited data

Results flagged for a closer look

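In 2 of the 10 genes the gap between an extreme mouse and its neighbour, divided by the whole range, passed Dixon's 95% critical value, which chance passes in about 1 of 20 groups. For *Atp2a1* the ratio was 1, with mouse 16 lowest at 19.90. The other 4 mice were tied at 19.93 and every mouse read the highest value of its array, so the ratio would be 1 whatever the distance of mouse 16. For *Atp2a2* the ratio was 0.851, with mouse 14 lowest at 19.39 and the others between 19.70 and 19.76.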

How the results depend on the processing

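The number of the 10 genes called above background was 8 with the 99th percentile or with beta-defensin and keratin-associated genes as background, 9 against vomeronasal receptor genes and over mice 3, 11 and 14, and 10 under every other setting run, each mouse left out included. The genes lost were *Atp2a3* and *Sri*. The distance of *Atp2a3* changed sign at the 99th percentile (-0.09, limma adjusted p = 0.569) and with beta-defensin and keratin-associated genes as background (-0.11, limma adjusted p = 0.498), since both cutoffs lie higher. Of related calcium genes, between 38 and 47 were called, 38 with beta-defensin and keratin-associated genes as background and 47 at the 50th percentile. The share of all genes called moved with the setting. It was 43.5% in the main setting, 65.7% at the 50th percentile and 38.2% at the 99th. With beta-defensin and keratin-associated genes it was 38.1%, with vomeronasal receptor genes 41.0%, and over mice 3, 11 and 14 it was 42.2%. The SD of *Atp2a3* was 0.12 without mouse 1, and that of *Casq1* 0.22 without mouse 14. The SD of *Pln* was 0.56, of *Casq2* 0.33, of *Hrc* 0.43 and of *Atp2a2* 0.02 without mouse 14. Signals at the top of the scale limit what *Atp2a1* and *Atp2a2* can show. No paired analysis was possible because there is only 1 group.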
